A study of Canis lupus familiaris with 29 samples.

Results

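INHBA, DKK3, GPC3 and RANBP3L are 4 genes that act on activin, Wnt, heparan sulfate and BMP/SMAD signalling, and they were examined on canine expression arrays. Their probe sets were those to which the platform annotation gives the single symbol INHBA, DKK3, GPC3 or RANBP3L. That rule found 8 probe sets among 43035 on the array: 1 for INHBA, 2 for DKK3, 2 for GPC3 and 3 for RANBP3L. Of these, 5 reached a log2 level of 5 on at least 3 arrays and entered the tests together with 16571 probe sets in all. The 5 were the single INHBA probe set, 1 for DKK3, 1 for GPC3 and 2 for RANBP3L. The probe set with the highest mean over all arrays leads for its gene, and group means under log2 5 are referred to as dim.

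The 4 genes were chosen for values measured in these same arrays. INHBA was chosen for its level in untreated 3D cells against untreated 2D cells. GPC3 and RANBP3L were chosen for their response to HGF in 3D, and DKK3 for its difference between U0126 and PD-98059. Those comparisons are described below without a test, and comparisons that share arrays with them are named as such.

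INHBA encodes the beta A subunit of inhibin and activin. Its dimer, activin A, is a secreted ligand of the TGF-beta family that signals through type II and type I receptors to SMAD proteins and is trapped outside the cell by follistatin. DKK3 is a secreted protein of the Dickkopf family, whose other members block Wnt co-receptors. GPC3 is a glypican, a heparan sulfate proteoglycan held on the cell surface by a lipid anchor, which binds growth factors and morphogens. RANBP3L is known from mouse cells as a Ran-binding protein that carries BMP-activated SMAD proteins out of the nucleus. In kidney epithelium, HGF sets off branching and tubule growth through its receptor MET and the MEK to ERK kinase cascade.

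The study used MDCK type II, a single line of dog kidney epithelial cells, grown in collagen (3D) or flat on transwell supports (2D). In 3D, cells received HGF with U0126 (3 arrays), HGF with PD-98059 (3 arrays), HGF alone (4 arrays) or no addition (control, 4 arrays). The same conditions in 2D had 3, 4, 4 and 4 arrays. U0126, a diaminobutadiene, and PD-98059, a flavone, are structurally distinct inhibitors of MEK activation, and both were only ever given together with HGF, so neither compound was measured without HGF. The labels state neither doses nor times. Nothing says that the arrays of a group came from separate cultures, so p-values measure only how far these arrays differ among themselves, possibly for technical reasons.

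All 29 arrays carried one measurement per probe set, and their number limits the precision. The lowest correlation between arrays of a group was 0.964 among the 4 of HGF in 3D and between 0.987 and 0.993 in the other 7 groups. Of 10 epithelial and kidney tubule markers with a probe set, 7 reached log2 5, among them EPCAM with group means of 13.97 to 14.74, whereas CDH1, PAX2 and PAX8 were below it. All 7 fibroblast, 5 leukocyte and 4 endothelial markers stayed below log2 5 on every array. An index of RNA quality, the mean excess of 3′ over 5′ or middle control probe sets on the log2 scale, averaged 1.61, 1.65, 1.68 and 1.93 in 3D cells with HGF and U0126, HGF and PD-98059, HGF alone and no addition. It averaged 1.31, 1.36, 0.838 and 1.44 in the same order in 2D. The 3D HGF arrays stood apart in it, with 2.46, 1.73, 1.42 and 1.09 in replicates 1 to 4 (SD 0.583, against 0.0246 to 0.238 in the other groups). Replicates 1 and 4, the highest and lowest, were left out together as an alternative, which ended no call for the 4 genes. Without them HGF in 3D differed from control by 3.93 for GPC3, -6.77 for RANBP3L, -0.48 for INHBA and 0.0148 for DKK3.

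**Figure D1:**
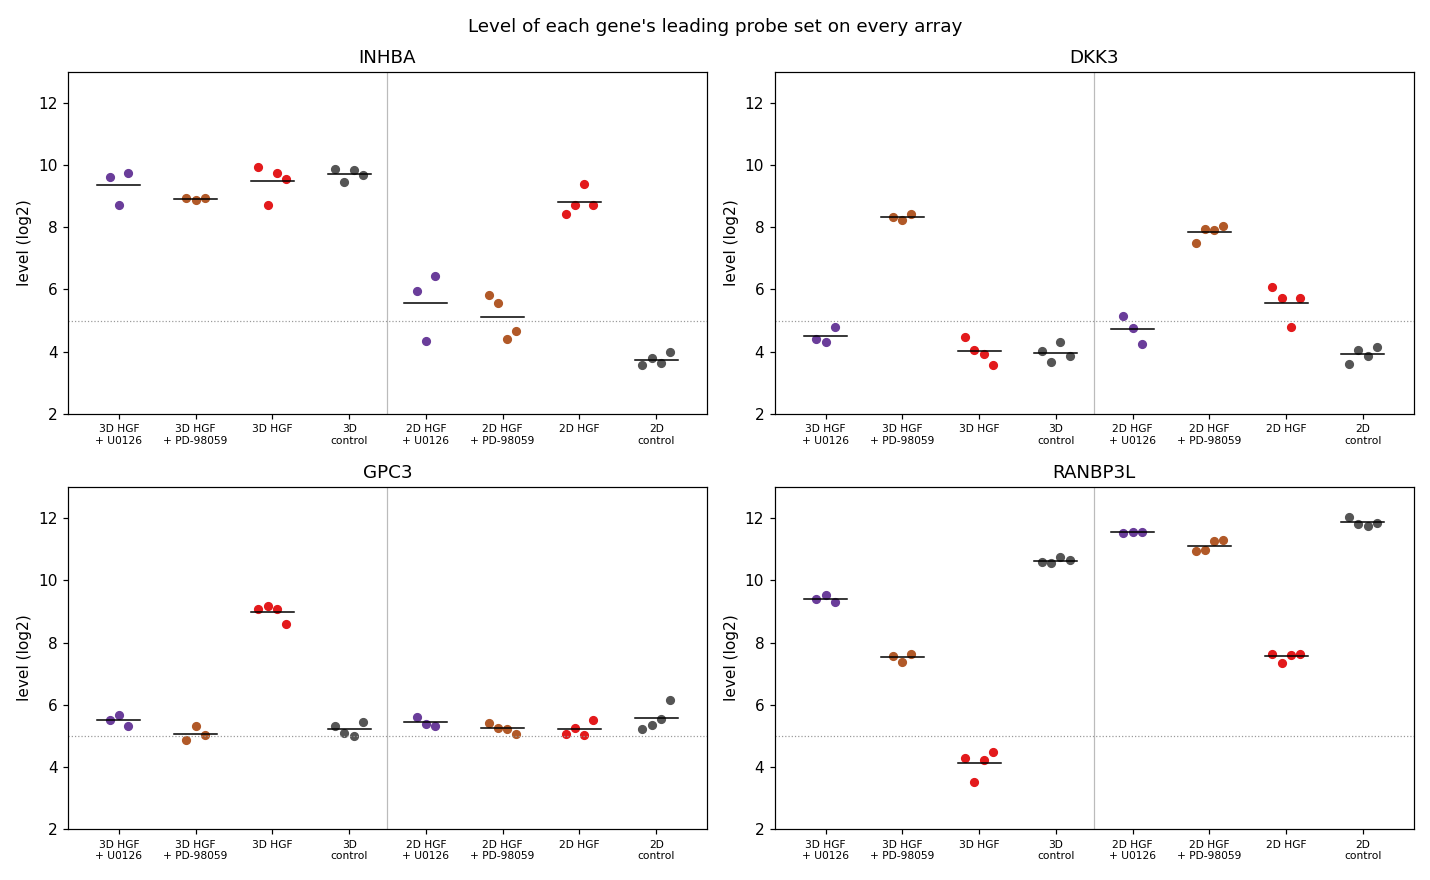
Log2 level of the leading probe set of INHBA, DKK3, GPC3 and RANBP3L on each of the 29 arrays, by group. Points are arrays, black bars are group means, the dotted line marks log2 5, and the 4 groups at the left of each panel are 3D. INHBA is low in untreated 2D cells, DKK3 is high in both PD-98059 groups, GPC3 is high in 3D HGF cells, and RANBP3L is lowest in 3D HGF cells.

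INHBA was high in every 3D group whatever the treatment, and in 2D it was high with HGF alone. The 3D arrays read 9.62, 8.71 and 9.74 with HGF and U0126, 8.96, 8.87 and 8.94 with HGF and PD-98059, 9.93, 8.71, 9.75 and 9.54 with HGF, and 9.88, 9.44, 9.85 and 9.68 in control cells. The 2D arrays read 5.96, 4.33 and 6.43 with HGF and U0126, 5.82, 5.57, 4.42 and 4.66 with HGF and PD-98059, 8.42, 8.71, 9.38 and 8.70 with HGF, and 3.56, 3.78, 3.62 and 3.99 in control cells. All 14 arrays of 3D cells lay above all arrays of 2D cells except those with HGF alone, which overlapped them. Untreated 3D cells were 62.8-fold higher than untreated 2D cells (5.97 ± 0.35, log2 difference ± standard error), the comparison for which INHBA was chosen and in which 24.6% of the 7043 genes tested were higher and 28.4% lower. The index of RNA quality differed between the same groups, and with it as a covariate the difference was 5.74.

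HGF raised INHBA in 2D cells by 33.5-fold (5.06 ± 0.35, adjusted p = 3.65e-12), against the same dim 2D control arrays that entered its choice. The call was kept with the index of RNA quality as covariate, which averaged 0.838 with HGF and 1.44 in control cells in 2D. For comparison, 29.1% of tested genes rose and 27.4% fell with HGF in 2D. In 3D cells the HGF difference was -0.23 ± 0.35 (adjusted p = 0.597, 95% interval -0.96 to 0.50), against 3D control arrays that entered the choice of INHBA. There 30.3% of tested genes rose and 33.1% fell. The response in 3D minus that in 2D came to -5.29 ± 0.50, given without a test because it contains the difference between untreated 3D and 2D cells by which INHBA was chosen. In bulk RNA, fewer cells that express a gene and less of its RNA per cell cannot be told apart.

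Both MEK inhibitors lowered INHBA in HGF-treated 2D cells. It fell 12.9-fold with PD-98059 (-3.69 ± 0.35, adjusted p = 1.64e-09) and 9.39-fold with U0126 (-3.23 ± 0.38, adjusted p = 7.52e-08), in comparisons that 53.9% and 51.8% of tested genes passed in either direction. Neither returned it to the control level: INHBA stayed 2.60-fold above 2D control with HGF and PD-98059 (1.38 ± 0.35, adjusted p = 0.00477) and 3.56-fold above it with HGF and U0126 (1.83 ± 0.38, adjusted p = 0.00110). These last comparisons share the 2D control arrays that entered the choice of INHBA, and their backgrounds were 26.5% and 18.5% of genes. The arrays within the 2D inhibitor groups were spread widely, over 4.33 to 6.43 with U0126 and 4.42 to 5.82 with PD-98059.

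In 3D the inhibitors left INHBA high. Its difference from HGF alone was -0.56 ± 0.38 with PD-98059 (adjusted p = 0.256) and -0.13 ± 0.38 with U0126 (adjusted p = 0.815), where 44.1% and 51.7% of genes passed. Comparisons with 3D control use arrays that entered the choice of INHBA. Against 3D control it differed by -0.79 ± 0.38 with PD-98059 (adjusted p = 0.106) and -0.36 ± 0.38 with U0126 (adjusted p = 0.512), where 41.3% and 34.2% passed. The first of these was called when only the compared groups were fitted (adjusted p = 0.000669) or with array weights (adjusted p = 0.0493). Under inhibition 3D cells had more INHBA than 2D cells, by 3.80 ± 0.38 with PD-98059 (14.0-fold, adjusted p = 6.34e-09) and 3.78 ± 0.41 with U0126 (13.8-fold, adjusted p = 4.18e-08), in comparisons that 52.7% and 43% of genes passed. With HGF alone the difference between 3D and 2D was 0.68 ± 0.35 (adjusted p = 0.0952; 66.1% of genes passed). It was called without 3D HGF replicate 2 (0.93, adjusted p = 0.0281) or without 2D HGF replicate 3 (0.87, adjusted p = 0.0470). The inhibitors did not differ in INHBA beyond the spread, U0126 being 0.43 above PD-98059 in 3D (95% interval -0.41 to 1.27, adjusted p = 0.557) and 0.46 above it in 2D (-0.33 to 1.24, adjusted p = 0.787).

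Other activin, BMP and TGF-beta genes are described from lists whose members were chosen by function. Follistatin, FST, the extracellular trap of activin, was the single tested member of a list of 11 extracellular inhibitors. FST read 7.32, 7.66 and 7.80 in 3D cells with HGF and U0126, 7.38, 8.63 and 8.16 with HGF and PD-98059, 9.37, 11.34, 9.85 and 8.44 with HGF, and 7.34, 7.52, 6.95 and 7.92 in control cells. In 2D it read 2.76, 3.67 and 3.66 with HGF and U0126, 3.63, 4.08, 3.65 and 3.81 with HGF and PD-98059, 5.34, 5.31, 5.27 and 5.81 with HGF, and 3.67, 3.67, 3.68 and 4.07 in control cells. Every 3D array was above every 2D array. FST rose with HGF in 3D (2.32 ± 0.37, adjusted p = 6.86e-06) and in 2D (1.66 ± 0.37, adjusted p = 0.000505), and it was 12.6-fold higher in untreated 3D than in dim untreated 2D cells (3.66 ± 0.37, adjusted p = 9.87e-09). Its HGF responses in 3D and 2D did not differ beyond the error (0.66 ± 0.53, adjusted p = 0.322).

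Among the 6 tested of 15 activin and TGF-beta family ligands other than INHBA, 4 rose and 0 fell with HGF in 3D, and 3 rose and 1 fell in 2D. The 1 that fell, GDF11, reached log2 5 only on 4 arrays, all 2D and none with HGF alone, so that fall carries no test. Over all tested genes 30.3% rose and 33.1% fell in 3D, and 29.1% rose and 27.4% fell in 2D. The ligand BMP2 rose by 2.56 ± 0.29 in 3D (adjusted p = 2.12e-08) and 2.11 ± 0.29 in 2D (adjusted p = 6.75e-07), and BMP4 by 1.67 ± 0.19 and 0.83 ± 0.19 (adjusted p = 1.83e-08 and 0.000479). The medians of the 6 ligands were 0.61 in 3D and 0.52 in 2D, against 0.00388 and -0.0009 over all tested genes. Both inhibitors lowered BMP2 in HGF-treated 3D cells, by -2.45 ± 0.31 with PD-98059 and -2.25 ± 0.31 with U0126 (adjusted p = 4.14e-07 and 1.17e-06). BMP4 stayed nearer its HGF level. In 3D it averaged 7.77 with HGF, 7.42 with HGF and PD-98059, 6.95 with HGF and U0126 and 6.10 in control cells. Its 2D means were 5.92, 6.07, 6.04 and 5.09 in the same order. Of 5 tested receptors, 4 fell and 0 rose with HGF in 3D, beside 33.1% and 30.3% of all genes. The largest fall, with overlap between the arrays, was that of TGFBR3 (-1.08 ± 0.28, adjusted p = 0.00166). Falls without overlap were those of ACVR1 (-0.82 ± 0.12, adjusted p = 7.93e-07) and the activin type II receptor ACVR2A (-0.51 ± 0.11, adjusted p = 0.000296). In 2D 1 receptor rose, ACVR2A (0.41 ± 0.11, adjusted p = 0.00309), and 1 fell, the BMP receptor BMPR1A (-0.52 ± 0.14, adjusted p = 0.00184).

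Among 8 tested SMAD proteins and regulators, 1 rose and 1 fell with HGF in 3D (30.3% and 33.1% of all genes), and 3 rose and 1 fell after quantile normalization or median centring. In 2D 4 rose and 0 fell (29.1% and 27.4% of all genes), SMAD2 by 0.73 ± 0.12 (adjusted p = 7.46e-06). Of 5 tested BMP and TGF-beta target genes, PMEPA1, a target that restrains TGF-beta signalling, rose with HGF by 0.80 ± 0.11 in 3D (adjusted p = 4.80e-07) and 3.12 ± 0.11 in 2D (adjusted p = 3.93e-18). Like INHBA, PMEPA1 was higher in untreated 3D than untreated 2D cells (2.15 ± 0.11, adjusted p = 1.70e-14), and its HGF response was smaller in 3D (-2.32 ± 0.15, adjusted p = 6.04e-12). PMEPA1 fell with both inhibitors in 3D (-1.65 ± 0.12 with PD-98059 and -1.96 ± 0.12 with U0126, adjusted p = 1.39e-11 and 2.86e-13). The BMP target ID3 fell with HGF in 3D (-0.98 ± 0.15, adjusted p = 3.10e-06), and ID1 rose with HGF in 2D (0.73 ± 0.22, adjusted p = 0.00609).

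**Figure D2:**
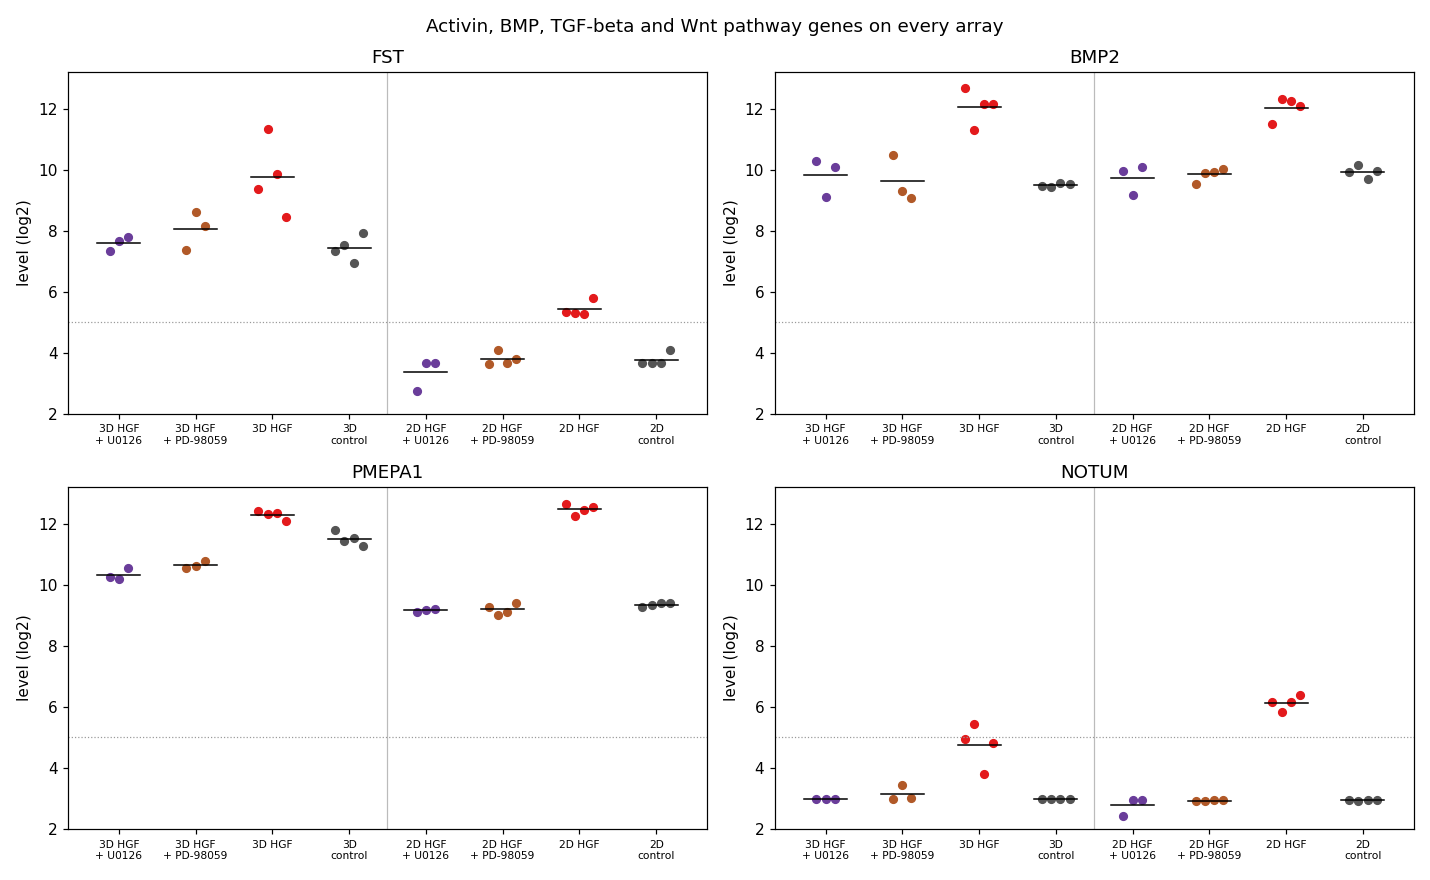
Log2 level of FST, BMP2, PMEPA1 and NOTUM on each array, by group, drawn as for the 4 genes themselves (points are arrays, bars are group means, the dotted line marks log2 5). All FST arrays of 3D cells lie above those of 2D cells, while BMP2, PMEPA1 and NOTUM have their highest group means in the HGF groups of both cultures.

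DKK3 was low in every group except where PD-98059 had been added, and HGF-treated 2D cells held an intermediate level. The 3D arrays read 4.42, 4.32 and 4.79 with HGF and U0126, 8.34, 8.23 and 8.43 with HGF and PD-98059, 4.49, 4.05, 3.91 and 3.58 with HGF, and 4.01, 3.67, 4.30 and 3.87 in control cells. The 2D arrays read 5.16, 4.77 and 4.25 with HGF and U0126, 7.50, 7.94, 7.91 and 8.06 with HGF and PD-98059, 6.07, 5.73, 4.79 and 5.73 with HGF, and 3.61, 4.04, 3.86 and 4.14 in control cells. The 7 PD-98059 arrays were above all 22 others, and the 3D ones above the 2D ones. U0126 was 14.1-fold below PD-98059 in 3D (-3.82 ± 0.27) and 8.73-fold below it in 2D (-3.13 ± 0.25), which are the comparisons that chose DKK3. In 3D 3.08% of tested genes were higher and 9.91% lower with U0126 than with PD-98059. In 2D the shares were 0.895% higher and 0.895% lower.

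Comparisons of either inhibitor with other groups share its arrays with that choice. DKK3 was 20.0-fold higher with HGF and PD-98059 than with HGF alone in 3D (4.32 ± 0.25, adjusted p = 2.62e-13) and 4.84-fold higher in 2D (2.27 ± 0.23, adjusted p = 4.84e-09). Against untreated cells it was 20.6-fold higher in 3D (4.37 ± 0.25, adjusted p = 1.50e-12) and 15.4-fold higher in 2D (3.94 ± 0.23, adjusted p = 1.26e-12). Between cultures, 3D was 0.48 ± 0.25 above 2D with PD-98059 (adjusted p = 0.115) and differed by -0.22 with U0126 (adjusted p = 0.560). The PD-98059 difference was called with array weights (0.59, adjusted p = 0.0318) or with the compared groups fitted alone (adjusted p = 0.0219). The PD-98059 level lay above both the HGF level and the control level in each culture.

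With U0126, DKK3 lay less than 1 log2 unit from the levels without inhibitor. In 3D it was 0.51 ± 0.25 above HGF alone (adjusted p = 0.0974) and 0.55 ± 0.25 above control (adjusted p = 0.0945), all on dim values. The first was called without 3D HGF replicate 1 (0.66, adjusted p = 0.0321) or with the index of RNA quality as a covariate (0.55, adjusted p = 0.0454), and the second also with that covariate (0.75, adjusted p = 0.0189). In 2D, DKK3 fell with U0126 relative to HGF alone (-0.85 ± 0.25, adjusted p = 0.00576) and remained above control (0.82 ± 0.25, adjusted p = 0.0234). The fall was not called without 2D HGF + U0126 replicate 3 (adjusted p = 0.0672), nor the excess over control without 2D HGF + U0126 replicate 1 (adjusted p = 0.166), replicate 2 (adjusted p = 0.0789) or 2D control replicate 1 (adjusted p = 0.0720). In 2D the compounds moved DKK3 in opposite directions from the HGF level, with arrays of HGF alone and of U0126 overlapping.

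HGF alone raised DKK3 in 2D cells by 3.18-fold (1.67 ± 0.23, adjusted p = 8.44e-07), and all 4 HGF arrays were above all 4 control arrays. In 3D the difference was 0.04 ± 0.23 (adjusted p = 0.890, 95% interval -0.43 to 0.52). The responses differed by -1.63 ± 0.33 between 3D and 2D (adjusted p = 0.000202), in a test that 49.2% of genes passed and none of whose arrays chose DKK3. In untreated cells 3D and 2D differed by 0.06 ± 0.23 (adjusted p = 0.866), and with HGF alone 3D was 2.97-fold below 2D (-1.57 ± 0.23, adjusted p = 1.56e-06). The second DKK3 probe set read between 2.11 and 2.32 on all 29 arrays and did not follow the first (r = 0.040 over the 29 arrays).

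The wider Wnt lists held few expressed members. Of 16 Wnt ligands with a probe set, WNT7A alone passed the filter, and only through 3 arrays of 2D cells with HGF, so its differences are given without a test. WNT7A averaged 2.97 with HGF and 2.47 in control cells in 3D, and 5.80 with HGF and 2.68 in control cells in 2D. Of 6 tested Wnt receptors and co-receptors 1 rose and 0 fell with HGF in 3D, where 30.3% and 33.1% of all genes did, and 4 rose after either quantile normalization or median centring. In 2D 2 rose and 3 fell, beside 29.1% and 27.4% of all genes. There FZD2 was up by 1.46 ± 0.12 (adjusted p = 1.71e-10) and LGR4, a receptor for R-spondins, was down (-1.11 ± 0.23, adjusted p = 0.000248).

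Among 5 tested Wnt antagonists other than DKK3, 2 rose and 2 fell with HGF in 3D, and 3 rose and 1 fell in 2D. NOTUM counted among the rises and APCDD1 among the falls in both cultures. These genes passed the filter only through groups where they were high, so their part of the counts carries no test. The shares of all genes were 30.3% and 33.1% in 3D, and 29.1% and 27.4% in 2D. NOTUM, a secreted enzyme that strips the lipid from Wnt ligands, read 2.98, 3.00 and 3.00 in 3D cells with HGF and U0126, 3.00, 3.44 and 3.03 with HGF and PD-98059, 4.94, 5.44, 3.81 and 4.83 with HGF, and 2.98, 2.98, 3.00 and 2.97 in control cells. In 2D it read 2.42, 2.96 and 2.95 with HGF and U0126, 2.92, 2.90, 2.95 and 2.96 with HGF and PD-98059, 6.16, 5.85, 6.17 and 6.39 with HGF, and 2.94, 2.93, 2.96 and 2.94 in control cells. In each culture all 4 NOTUM arrays with HGF alone were above all other arrays, and its mean passed log2 5 in 2D HGF cells only. NOTUM passed the filter only through HGF arrays, so its differences from control, 1.77 ± 0.21 in 3D and 3.20 ± 0.21 in 2D, are given without a test, and with either inhibitor it lay too low to compare them. APCDD1, a membrane inhibitor of Wnt signalling, was dim in both HGF groups and in 3D control. It reached log2 5 on 11 arrays, of 2D control cells and of 2D cells with an inhibitor, so its differences carry no test. They were -1.20 ± 0.20 in 3D and -1.89 ± 0.20 in 2D for HGF against control. FRZB, a secreted Frizzled-related protein, fell in 3D (-0.45 ± 0.11, adjusted p = 0.000617) and rose in 2D (0.90 ± 0.11, adjusted p = 5.73e-08).

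Of the same 5 antagonists, FRZB was the 1 that differed between the inhibitors in 3D, where it was lower with U0126 (-0.57 ± 0.12, adjusted p = 0.00277), and 0 of 5 passed in 2D. Of all genes 9.91% were lower and 3.08% higher with U0126 in 3D, and 0.895% were lower and 0.895% higher in 2D. With the arrays of 3D HGF replicates 1 and 4 left out, 2 of 5 were lower with U0126 in 3D. Of 7 tested Wnt signal transducers 2 rose and 2 fell with HGF in 3D, close to the 30.3% and 33.1% of all genes, among them GSK3B (1.35 ± 0.26, adjusted p = 5.84e-05), and without 3D HGF replicates 1 and 4 this was 1 rise and 0 falls. In 2D 1 fell, CTNNB1 (-0.44 ± 0.08, adjusted p = 4.47e-05), where 29.1% of all genes rose and 27.4% fell. Of 3 tested Wnt target genes, MYC rose with HGF 2.17-fold in 3D (adjusted p = 3.39e-08) and 2.82-fold in 2D (adjusted p = 2.28e-10), and AXIN2 fell in 3D (-0.92 ± 0.18, adjusted p = 8.80e-05). Over all genes 30.3% rose and 33.1% fell in 3D, and 29.1% rose and 27.4% fell in 2D. ZNRF3 reached log2 5 on 4 arrays, all 2D and none with HGF alone, so its 2D difference of -0.75 ± 0.22 carries no test.

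GPC3 stood high in a single group, HGF-treated 3D cells. The 3D arrays read 5.50, 5.68 and 5.30 with HGF and U0126, 4.87, 5.31 and 5.02 with HGF and PD-98059, 9.08, 9.19, 9.08 and 8.59 with HGF, and 5.30, 5.09, 4.98 and 5.45 in control cells. The 2D arrays read 5.60, 5.39 and 5.32 with HGF and U0126, 5.40, 5.26, 5.23 and 5.05 with HGF and PD-98059, 5.07, 5.26, 5.01 and 5.50 with HGF, and 5.21, 5.35, 5.54 and 6.16 in control cells. The other 7 groups all overlapped their neighbours in level and lay near the log2 5 line. HGF in 3D gave a 13.7-fold higher level than control (3.78 ± 0.17), the comparison for which GPC3 was chosen.

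Both inhibitors brought GPC3 down in HGF-treated 3D cells, in tests that share the HGF arrays with that choice. It fell 15.1-fold with PD-98059 (-3.92 ± 0.19, adjusted p = 7.92e-15) and 11.2-fold with U0126 (-3.49 ± 0.19, adjusted p = 4.09e-14). With inhibitor it no longer differed from 3D control beyond the spread, by -0.14 ± 0.19 with PD-98059 (95% interval -0.53 to 0.25, adjusted p = 0.616) and 0.29 ± 0.19 with U0126 (-0.10 to 0.68, adjusted p = 0.253), where the control arrays had entered the choice. U0126 was 0.43 above PD-98059 in 3D (0.01 to 0.84, adjusted p = 0.182) and 0.20 above it in 2D (-0.19 to 0.59, adjusted p = 0.832).

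In 2D no treatment moved GPC3 past the threshold. HGF differed from control by -0.36 ± 0.17 (adjusted p = 0.0879), PD-98059 from HGF by 0.03 ± 0.17 (adjusted p = 0.920) and U0126 from HGF by 0.22 ± 0.19 (adjusted p = 0.350). The HGF difference was called without 2D control replicate 1 (-0.47, adjusted p = 0.0311) or 2D HGF replicate 4 (-0.45, adjusted p = 0.0432). Untreated 3D and 2D cells differed by -0.36 ± 0.17 (adjusted p = 0.0873), which was called without 2D control replicate 1 (-0.48, adjusted p = 0.0324). The 3D control arrays of this comparison had entered the choice of GPC3. With HGF, 3D cells had 13.7-fold more GPC3 than 2D cells (3.77 ± 0.17, adjusted p = 1.05e-15), again with the HGF arrays that chose it. The second GPC3 probe set read between 2.14 and 2.31 on every array, also in HGF-treated 3D cells (r = 0.224 with the first over 29 arrays).

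Other heparan sulfate proteoglycans are given from a list. Of 5 tested glypicans, syndecans and other core proteins, 0 rose and 3 fell with HGF in 3D (median -0.37), beside 30.3% and 33.1% of all genes, and 2 fell after median centring or without 3D HGF replicates 1 and 4. In 2D 1 rose and 2 fell (median 0.03), beside 29.1% and 27.4%, with GPC4 counted among the falls. Agrin, AGRN, a basement membrane proteoglycan, fell with HGF by -1.81 ± 0.15 in 3D (adjusted p = 1.04e-10) and -1.45 ± 0.15 in 2D (adjusted p = 8.32e-09). Perlecan, HSPG2, fell in 3D (-0.89 ± 0.16, adjusted p = 2.60e-05), and syndecan 4, SDC4, fell in 3D (-0.37 ± 0.14, adjusted p = 0.0212) and rose in 2D (1.12 ± 0.14, adjusted p = 8.96e-08). Of the 3 falls in 3D that of SDC4 was the smallest and nearest the threshold. Which of the 3 was lost in the alternatives was not recorded by gene. The glypican GPC4 reached log2 5 on 3 arrays, of 2D cells with HGF and U0126 and of 2D control cells, so its differences carry no test. In 2D it lay 0.80 lower with HGF than in control cells and 0.997 higher with U0126 than with PD-98059. Leaving GPC4 out, no gene of the 13 pathway lists passed in that last comparison, where 0.895% of all genes were higher and 0.895% lower.

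Of 8 tested enzymes that build or modify heparan sulfate, 1 rose and 5 fell with HGF in 3D, and 1 rose and 6 fell in 2D, with medians of -0.30 and -0.34. Of all tested genes 30.3% rose and 33.1% fell in 3D, and 29.1% and 27.4% in 2D. After quantile normalization or median centring 3 fell in 3D. The sulfating enzyme NDST2 fell in both cultures (-1.21 ± 0.10 in 3D, adjusted p = 1.51e-10; -0.80 ± 0.10 in 2D, adjusted p = 3.13e-07), and the chain polymerase subunit EXT2 was among those that fell in 3D (-0.99 ± 0.10, adjusted p = 1.99e-09). The extracellular sulfatase SULF2 rose in 2D (0.92 ± 0.11, adjusted p = 8.15e-08) and was lower with U0126 than with PD-98059 in 3D (-0.72 ± 0.13, adjusted p = 0.000446). With HGF in 3D it was called lower (-0.30 ± 0.11, adjusted p = 0.0216), with overlap between the arrays. That fall was among the smallest of the 5, and whether it was kept after normalization was not recorded by gene.

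**Figure D3:**
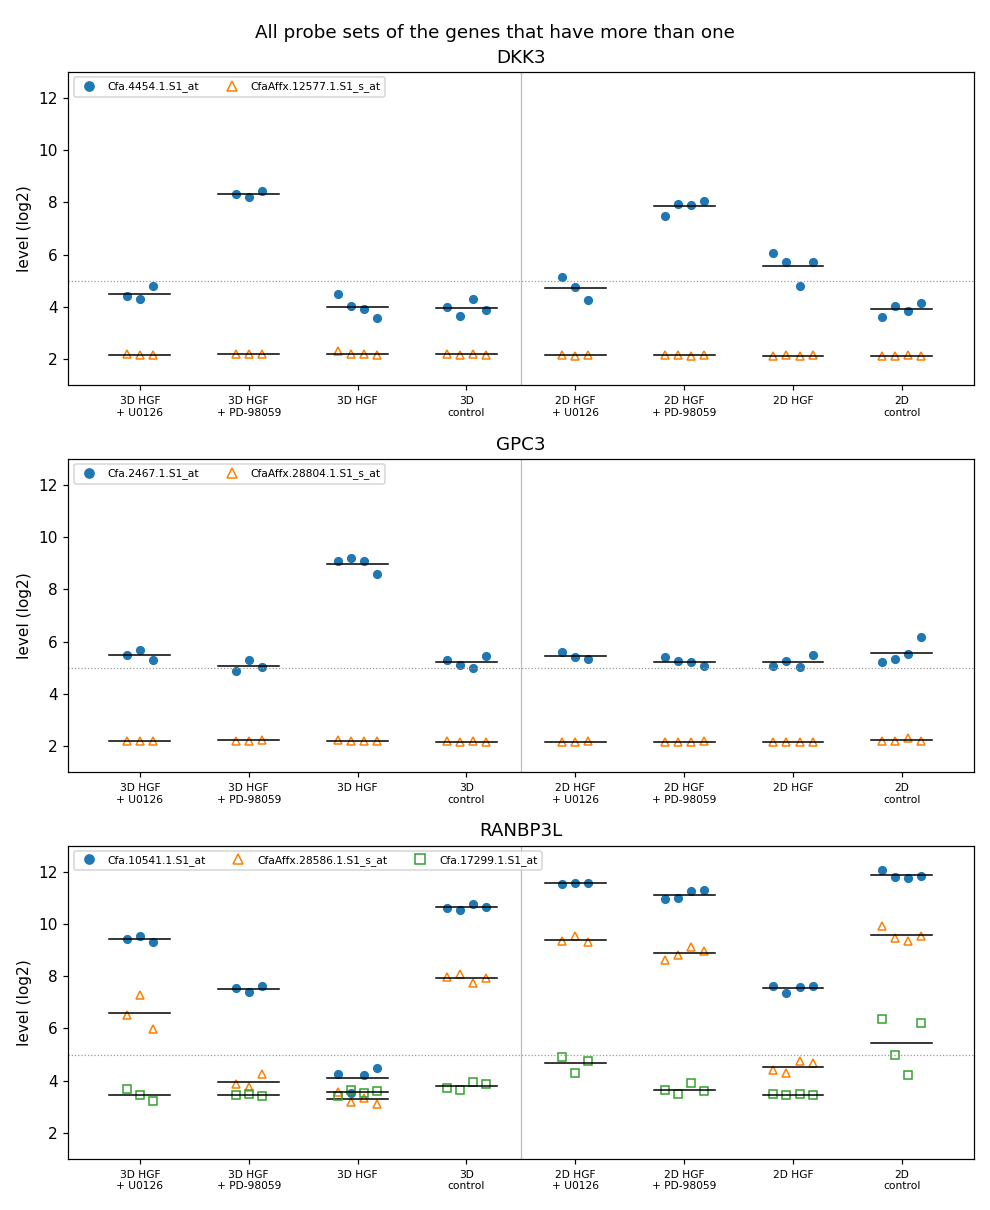
Log2 level of every probe set of DKK3, GPC3 and RANBP3L on each array, by group, with filled circles for the leading probe set and open symbols for the others. Black bars are group means and the dotted line marks log2 5. The second probe sets of DKK3 and GPC3 stay below 2.4, while the second of RANBP3L moves with the first and the third rises above 5 in untreated 2D cells alone.

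RANBP3L was high in untreated cells, far lower with HGF and partly restored by the inhibitors, at a lower level in 3D than in 2D throughout. The 3D arrays read 9.41, 9.52 and 9.32 with HGF and U0126, 7.56, 7.39 and 7.63 with HGF and PD-98059, 4.27, 3.52, 4.21 and 4.48 with HGF, and 10.60, 10.54, 10.74 and 10.65 in control cells. The 2D arrays read 11.54, 11.56 and 11.56 with HGF and U0126, 10.94, 10.97, 11.25 and 11.28 with HGF and PD-98059, 7.64, 7.34, 7.60 and 7.64 with HGF, and 12.05, 11.81, 11.76 and 11.84 in control cells. Of the 7 steps between neighbouring group means, 6 were free of overlap, and the exception was 2D with HGF beside 3D with HGF and PD-98059. HGF-treated 3D cells were 91.5-fold below 3D control (-6.52 ± 0.13) at a dim level, which is the comparison that chose RANBP3L.

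HGF lowered RANBP3L 19.9-fold in 2D cells as well (-4.31 ± 0.13, adjusted p = 5.07e-19), in arrays that had no part in its choice. The response in 3D minus that in 2D was -2.20 ± 0.19 on the leading probe set, given without a test because it contains the choosing comparison. Both inhibitors raised RANBP3L over HGF alone in 2D, by 3.56 ± 0.13 with PD-98059 (adjusted p = 2.28e-17) and 16.0-fold with U0126 (± 0.15 on the log2 scale, adjusted p = 1.17e-17). In 3D the rises were 3.41 ± 0.15 with PD-98059 (adjusted p = 8.76e-16) and 5.29 ± 0.15 with U0126 (adjusted p = 1.05e-19), both against the HGF arrays that entered the choice.

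The compounds restored RANBP3L to different extents in 3D. U0126 was 3.70-fold above PD-98059 (1.89 ± 0.16, adjusted p = 8.93e-09), with no overlap between arrays, where 3.08% of genes were higher. In 2D U0126 was 0.44 ± 0.15 above PD-98059 (95% interval 0.14 to 0.74, adjusted p = 0.156), which was called with array weights (0.48, adjusted p = 0.0210). The difference in 3D exceeded that in 2D by 1.45 ± 0.21 (adjusted p = 0.000254). RANBP3L and DKK3 lay on opposite sides, RANBP3L being higher and DKK3 lower with U0126 than with PD-98059.

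Relative to untreated cells, RANBP3L remained lower by -3.11 ± 0.15 with HGF and PD-98059 in 3D (adjusted p = 4.10e-14) and by -1.22 ± 0.15 with HGF and U0126 (adjusted p = 5.94e-07), against control arrays that entered the choice. In 2D it was lower by -0.75 ± 0.13 with PD-98059 (adjusted p = 0.000139), and the difference with U0126 was -0.31 ± 0.15 (adjusted p = 0.151), called when the compared groups were fitted alone (adjusted p = 0.0275). RANBP3L was lower in 3D than in 2D under every condition. The differences were -2.14 ± 0.16 with HGF and U0126 (adjusted p = 4.84e-11), -3.59 ± 0.15 with HGF and PD-98059 (adjusted p = 4.79e-16), -3.43 ± 0.13 with HGF (adjusted p = 4.10e-17) and -1.23 ± 0.13 in control cells (adjusted p = 3.15e-08). These 3D and 2D groups did not overlap on any array, and the 3D HGF and 3D control arrays among them had entered the choice.

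The second RANBP3L probe set followed the first over the 29 arrays (r = 0.951). It read 6.50, 7.29 and 5.98 in 3D cells with HGF and U0126, 3.88, 3.76 and 4.24 with HGF and PD-98059, 3.58, 3.17, 3.32 and 3.10 with HGF, and 7.95, 8.08, 7.74 and 7.94 in control cells. In 2D it read 9.34, 9.52 and 9.32 with HGF and U0126, 8.63, 8.82, 9.10 and 8.95 with HGF and PD-98059, 4.40, 4.30, 4.77 and 4.67 with HGF, and 9.93, 9.47, 9.35 and 9.55 in control cells. It was dim in both HGF groups and in 3D with PD-98059. On it the HGF difference was -4.63 ± 0.19 in 3D and -5.04 ± 0.19 in 2D (adjusted p = 2.50e-17 in 2D), so that the response in 3D minus that in 2D came to 0.41 ± 0.27, opposite in sign to the leading probe set. The rise with PD-98059 in 3D was 0.67 ± 0.21 (adjusted p = 0.0111), and U0126 exceeded PD-98059 by 2.63 ± 0.22 there (adjusted p = 1.19e-08). The third probe set passed log2 5 on 2 arrays, both of untreated 2D cells, at 6.34 and 6.20.

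Of 6 tested Ran-cycle and Ran-binding genes other than RANBP3L, 3 rose and 0 fell with HGF in 3D (30.3% and 33.1% of all genes), and 3 rose and 2 fell in 2D (29.1% and 27.4%). RANBP1, a cofactor of Ran hydrolysis, rose by 1.58 ± 0.11 in 3D (adjusted p = 2.91e-12) and 0.64 ± 0.11 in 2D (adjusted p = 1.82e-05), and RCC1, the Ran exchange factor, rose by 1.42 ± 0.10 in 3D (adjusted p = 2.94e-12) and fell in 2D (-0.30 ± 0.10, adjusted p = 0.0122). RANBP3, which exports TGF-beta-activated SMAD proteins, differed by 0.12 ± 0.11 in 3D (adjusted p = 0.342) and rose by 0.44 ± 0.11 in 2D (adjusted p = 0.00122). Between U0126 and PD-98059 in 3D 3 of the 6 were lower with U0126, beside 9.91% of all genes, and after quantile normalization 0 of 6 were.

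**Figure D4:**
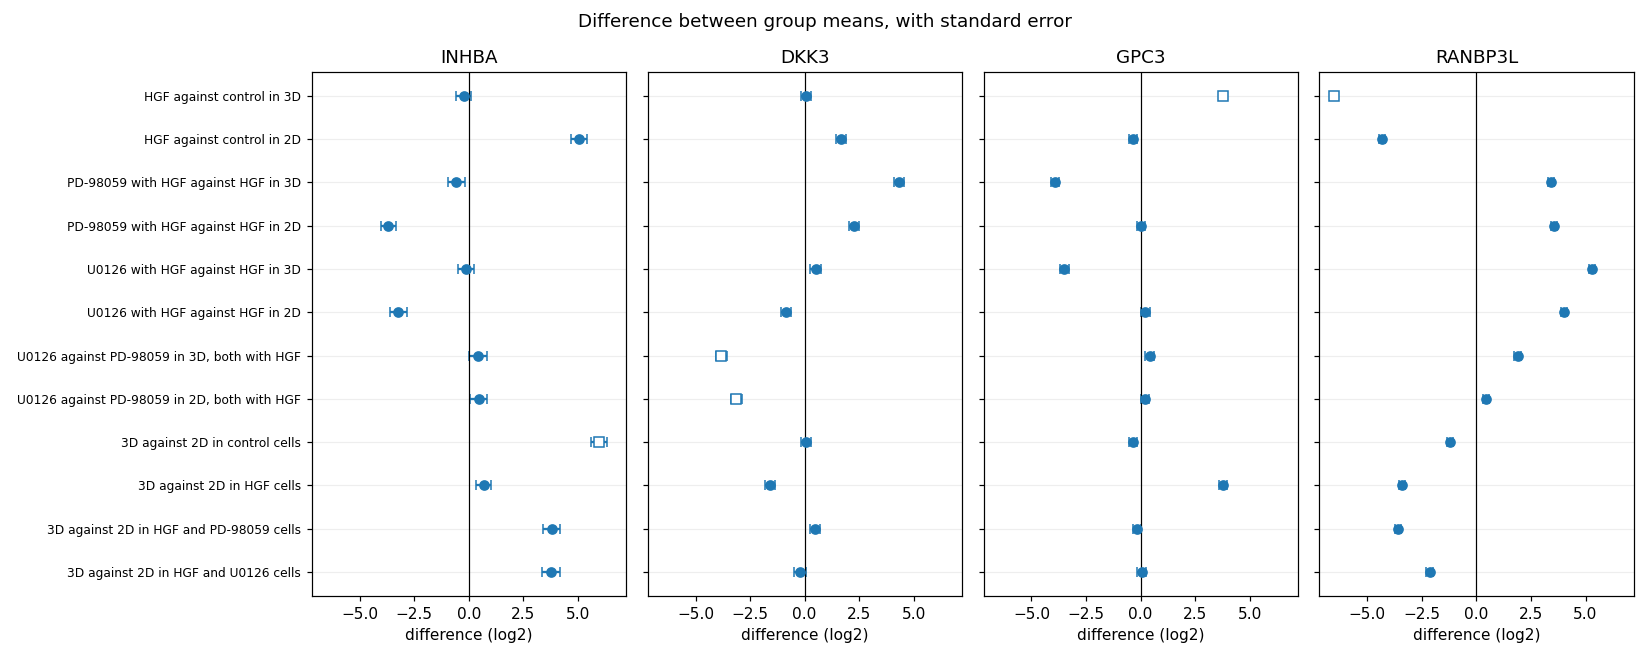
Differences between group means on the log2 scale with standard error bars, for the leading probe set of each gene in 12 comparisons, the group named first minus the group named after it. Open squares mark the comparisons that chose a gene and carry no test. INHBA and DKK3 show HGF differences near 0 in 3D and above 0 in 2D, GPC3 moves in the comparisons that contain 3D HGF cells, and RANBP3L is below 0 for HGF in both cultures.

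The 4 genes followed separate patterns over the 8 groups. Over the 29 arrays the Pearson correlation was -0.733 between GPC3 and RANBP3L, -0.662 between INHBA and RANBP3L, -0.373 between DKK3 and GPC3 and between -0.115 and 0.267 for the other pairs. These are descriptions over arrays that share groups and treatments. The genes whose levels were most like INHBA over the 29 arrays were ATP10A (r = 0.939), DPYSL3 (0.935) and MYO1C (0.932). Those most like GPC3 were DDI2 (0.916), the collagenase MMP1 (0.891) and DNAJB11 (0.878). RANBP3L was most closely followed by PCBD1 (0.984), RAB3IP (0.983) and OSCP1 (0.983). DKK3 had looser companions in NADSYN1 (0.821), RNF26 (0.789) and HSD17B12 (0.788), whose group means spanned far less than those of DKK3.

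**Figure D5:**
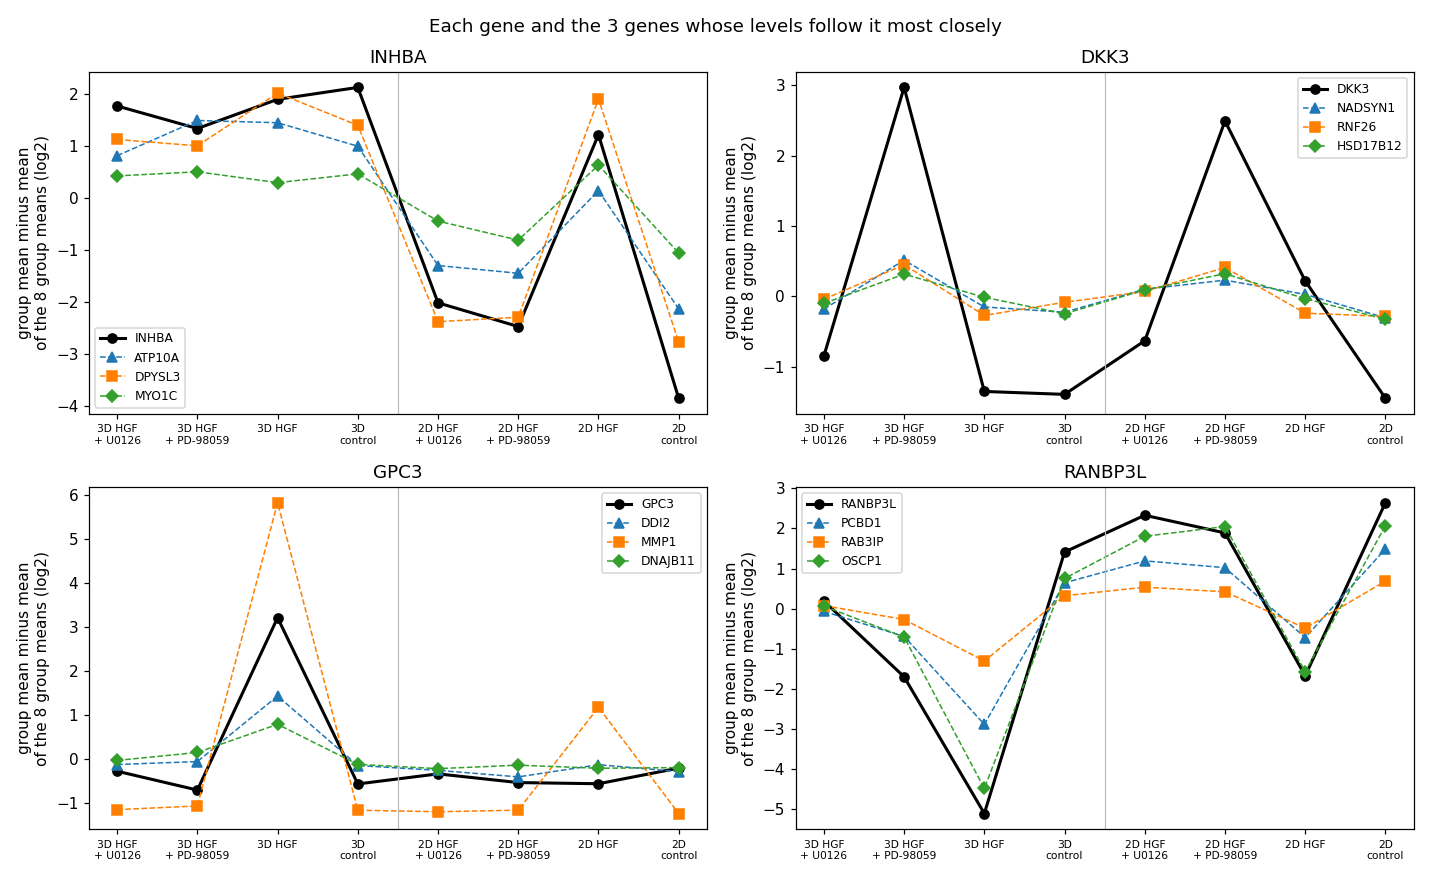
Group means of each gene and of the 3 genes most correlated with it over 29 arrays, each drawn as its difference from the mean of its own 8 group means (log2). Black lines are INHBA, DKK3, GPC3 and RANBP3L, and dashed lines are the other genes. The dashed lines follow RANBP3L closely, whereas those beside DKK3 rise in the PD-98059 groups by much less than DKK3 does.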

How the data were processed

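Messenger RNA of MDCK cells was measured on 29 Affymetrix canine arrays. The deposited values are on a log2 scale with 1 value per probe set and array. GCRMA, Partek 6.6, MAS5 and Expression Console 1.1 by Affymetrix are named, per the submitters' processing notes, without saying which tool made which step. The values were not normalized again. Probe sets took their symbols from the platform annotation (29254 with 1 symbol, 439 with several, 13231 with none), and all 4 genes matched RefSeq by gene ID. No coordinates or sequences were used.

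Groups came from the sample labels. After removing 111 control probe sets, 16571 that reached log2 5 on at least 3 arrays were fitted with limma 3.58.1 in R 4.3.3, with 8 group means over all 29 arrays, eBayes with a variance trend and Benjamini-Hochberg adjustment within each comparison (threshold 0.05). The same fit was tested on simulated data. Shares of genes use the leading probe sets of 7043 genes.

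The 4 genes and all lists were chosen with earlier results of these data known. The text names, from each list, up to 2 genes per direction with the largest change among those that passed without overlap between arrays, and the 3 genes most correlated with each member. Further list genes (RANBP3, TGFBR3) and further comparisons of FST, BMP2, BMP4, PMEPA1, NOTUM, WNT7A, SDC4, SULF2 and RCC1 were chosen after their values were seen. Alternatives covered the filter, the variance trend, quantile normalization, median centring, array weights, an index of RNA quality as covariate, the compared groups alone, the replicate number as a block, the other probe sets, 3D HGF replicates 1 and 4 left out together, and each array left out. Replicate numbers were not taken as pairing arrays: in 1 of 16 comparisons every same-numbered pair correlated above 0.1 (range of pairs -0.339 to 0.596). That comparison was 3D against 2D with HGF and U0126, and it too was tested as unpaired.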

Additional observations from a re-analysis of the deposited data

Results flagged for a closer look

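RANBP3L had 1 array far from the others of its group: 2D HGF replicate 2 read 7.34, with the nearest of the other 3 arrays at 7.60, and the gap took 0.863 of the group's range, above Dixon's 95% critical value. Such a gap arises by chance in about 1 in 20 groups of 4, and 1 of 20 such groups of the 4 genes showed it. In 2 cases the effect differed between cultures by a test of the difference itself. The DKK3 response to HGF was lower in 3D than in 2D by -1.63 (adjusted p = 0.000202). The excess of RANBP3L with U0126 over PD-98059 was greater in 3D than in 2D by 1.45 (adjusted p = 0.000254), and by 2.11 on its second probe set (adjusted p = 0.000195).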

How the results depend on the processing

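For the leading probe sets, 1208 values were recomputed for 68 differences, of which 1184 kept their call and, where there was no test, their value within 1 SD, and 24 did not; no called difference changed sign. Array weights called INHBA with PD-98059 against 3D control (-0.80), DKK3 with U0126 against 3D control (0.50), DKK3 with PD-98059 in 3D against 2D (0.59) and RANBP3L for U0126 against PD-98059 in 2D (0.48). Fitting the compared groups alone called INHBA with PD-98059 against 3D control (-0.79), DKK3 with U0126 against 3D control (0.55), DKK3 with PD-98059 in 3D against 2D (0.48) and RANBP3L with U0126 against 2D control (-0.31), and ended the call for DKK3 with U0126 against HGF in 2D (-0.85). The index of RNA quality as covariate gave 5.74 for INHBA in untreated 3D against 2D cells and called DKK3 with U0126 in 3D against HGF (0.55) and control (0.75). Without a filter, DKK3 with U0126 against 2D control (0.82) was not called. Without 3D HGF replicates 1 and 4 the RANBP3L response in 3D minus 2D was -2.45. The second RANBP3L probe set gave -4.63 for HGF in 3D and, reversed, 0.41 for that difference. The other probe sets of DKK3 and GPC3 and the third of RANBP3L were below the filter and gave no alternative. Leaving out each array in turn, the ranges of the differences whose call changed were 0.53 to 0.93 for INHBA in 3D against 2D with HGF, 0.36 to 0.66 for DKK3 with U0126 against HGF in 3D, -1.11 to -0.61 for the same in 2D, 0.60 to 1.06 for DKK3 with U0126 against 2D control, -0.47 to -0.16 for GPC3 with HGF in 2D and -0.48 to -0.16 for GPC3 in untreated 3D against 2D cells. The replicate number as a block changed no call (INHBA with HGF in 2D stayed at 5.06 and the INHBA response in 3D minus 2D at -5.29). Same-numbered arrays were not treated as pairs. Those of 3D and 2D cells with HGF and U0126 did correlate, by 0.253 to 0.596. The cause of these changes was not tested.

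Counts of called probe sets moved by over 1.5 times in 9 cases. For PD-98059 against HGF in 3D 6965 were called in the fit over all groups and 4365 with the compared groups alone. For U0126 against PD-98059 in 3D the count was 1957, with 5447 under array weights and 1287 with the compared groups alone. In 2D it was 269, with 494 after quantile normalization, 519 under array weights, 471 with the index of RNA quality and 69 with the compared groups alone. For U0126 against 2D control it was 2821, with 4426 under array weights, and for 3D against 2D with HGF 10703, with 23761 without a filter. Quantile normalization turned 217 genes higher and 698 lower with U0126 than PD-98059 in 3D into 362 and 500, and median centring moved the median HGF difference in 3D over all genes to 0.104. Among the genes picked by size from each list, RANBP1, RCC1 and KRT8 for U0126 against PD-98059 in 3D lost their call after quantile normalization. LRP6 lost its call there for untreated 3D against 2D cells. That check covered only the comparisons in which a gene was picked, so it left out SDC4 and SULF2 for HGF in 3D.

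A probe set near log2 5 or below gives little signal over background. This limits DKK3 without PD-98059, GPC3 outside 3D HGF cells and RANBP3L in 3D HGF cells. It also limits INHBA in 2D cells that were untreated or given an inhibitor, and FST in all 2D groups. A fold against such a level rests on background signal.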

Other observations

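In untreated cells the culture also separated other genes of these pathways. The BMP target ID1 was 2.94-fold lower in 3D than in 2D (-1.55 ± 0.22, adjusted p = 1.63e-06), the heparan sulfate sulfotransferase HS2ST1 was 2.04-fold lower (-1.03 ± 0.16, adjusted p = 7.44e-06) and perlecan, HSPG2, was 2.23-fold higher (1.16 ± 0.16, adjusted p = 1.07e-06). Both inhibitors raised ID1 in HGF-treated 3D cells, by 2.46 with PD-98059 and 2.01 with U0126 (adjusted p = 3.66e-09 and 8.63e-08), and ID3 by 1.90 and 1.83 (adjusted p = 4.57e-10 and 6.15e-10). These members of the lists were picked out after their values were seen.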
